A study of Triticum aestivum with 34 samples.

Results

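The HOX14 genes of bread wheat were followed in basal and central spikelets of the ear. These genes encode homeobox-leucine zipper transcription factors, and they were taken as every gene model whose deposited description holds the name HOX14 and whose FPKM (a level scaled for transcript length and library size) was at least 1 in at least 2 of 34 libraries. There were 5 such rows among 162233 gene models, and all 5 passed the FPKM limit that left 71963 models to test. RNA was sequenced from spikelets of the genotype shimai22, untreated, on days 6, 9, 12, 15, 21 and 27 counted from the terminal spikelet stage, when the ear forms its last spikelet. There were 17 libraries of basal spikelets and 17 of central spikelets, with 3 for each position and day, except that basal day 15 and central day 21 had 2. The study asked how the transcriptome differs between basal spikelets and central spikelets over these days. The labels do not say how many ears were pooled or that replicates are separate plants, so the p-values below measure only the spread between these samples, which may be technical.

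Homeobox-leucine zipper proteins of class I are plant transcription factors that bind DNA as dimers, through a homeodomain joined to a leucine zipper that holds the dimer together. In barley, a class I gene of this kind, VRS1, holds back the lateral spikelets of the ear, and in wheat its counterpart GNI1 limits how many florets of a spikelet set grain. In Arabidopsis, class I genes act in resting buds between a branching repressor of the TEOSINTE BRANCHED 1 type and the gene for the rate-limiting enzyme of abscisic acid synthesis. HOX14 is the name of a rice gene of this class, and the sources used here do not say which of the 5 wheat models corresponds to GNI1.

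Library totals were 95144712 to 126139684 counts. The labelled tissue was checked with 26 tested MADS-box genes of floret organs, of which 25 or 26 had a mean of at least 1 FPKM in every group. Their summed level was 489 to 534 FPKM in basal and 524 to 551 FPKM in central libraries on day 6. On every later day all basal libraries were below all central ones, with 426 to 457 against 566 to 655 FPKM on day 9 and 692 to 810 against 981 to 1076 FPKM on day 27. Markers of green tissue and of anthers also differed between positions and days. The summed level of 85 chlorophyll-binding and Rubisco small-subunit genes was 1979 to 2244 FPKM in basal and 5244 to 5975 FPKM in central libraries on day 9. On day 27 it was 10080 to 11797 FPKM in basal and 4981 to 11526 FPKM in central libraries. Of 99 pollen and anther genes, 30 on day 6 and 81 on day 27 had a mean of at least 1 FPKM in basal spikelets, against 30 and 76 in central spikelets. On day 21 there were 26 in basal and 43 in central spikelets, with 42 of the 99 at 0 in basal and 17 at 0 in central libraries. On day 6, 53 were at 0 in each position. The part of tissue makeup in the differences below was not tested, and in bulk RNA of spikelets fewer cells of a type and less RNA per cell cannot be told apart.

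The 5 genes fell into 3 sets by position (coordinates of the Chinese Spring assembly IWGSC CS RefSeq v2.1). TraesCS2A03G0392300 lay on chromosome 2A from 158059404 to 158060563 on the plus strand. TraesCS2B03G0528200 lay on chromosome 2B from 216272789 to 216274199 and TraesCS2D03G0416300 on chromosome 2D from 151266981 to 151268342, both on the minus strand. Each of these 3 models overlapped 1 RefSeq gene. Among the 20 gene models on either side, the 2A and 2B genes shared 11 gene descriptions, the 2A and 2D genes 10, and the 2B and 2D genes 7. They are called the 2A, 2B and 2D copies here, as homoeologs, that is, the counterparts of 1 gene in the related subgenomes of bread wheat. TraesCS2D03G0878100 also lay on chromosome 2D, from 492294717 to 492296393, and overlapped 1 RefSeq gene too. It shared 0 neighbour descriptions with any of the 3 copies. TraesCSU03G0009700 was on sequence not placed on a chromosome (13640468 to 13642067 of that sequence). The deposited annotation gave all 5 genes the terms floral organ structural organization and regulation of secondary shoot formation. Near-identical copies may share reads, and how the authors assigned shared reads is not given in the sources used here, so the values of single copies carry that limit.

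Levels differed between the copies and were moderate. The 2A copy averaged 6.19 FPKM over the 34 libraries, the 2D copy 3.52 FPKM and the 2B copy 2.37 FPKM, which put them at the 70.9th, 54.5th and 43.7th percentile of the tested models. TraesCS2D03G0878100 averaged 0.698 FPKM and reached 1 FPKM in 5 libraries. The unplaced gene averaged 0.293 FPKM, reached 1 FPKM in 3 libraries and stood at 0 counts in 12.

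The 2A, 2B and 2D copies shared 1 course. Each was highest in basal spikelets on day 6, was higher in basal than in central spikelets through day 15, and had its lowest mean in basal spikelets on day 27, when the mean there was below that of central spikelets. The day 27 difference passed the test for the 2A and 2B copies only. The per-library values of each copy follow.

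The 2A copy stood at 17.3, 13.4 and 16.3 FPKM in the basal and 6.84, 5.79 and 6.59 FPKM in the central libraries of day 6. The day 9 libraries gave 15.3, 10.9 and 10.2 FPKM for basal against 2.10, 2.18 and 2.10 FPKM for central spikelets. Basal spikelets of day 12 had 11.96, 13.4 and 11.1 FPKM, and central spikelets 3.94, 4.0 and 4.12 FPKM. On each of these days every basal library was above every central one. On day 15 the basal libraries had 8.84 and 8.08 FPKM and the central ones 2.80, 3.24 and 3.54 FPKM. Day 21 gave 7.67, 3.05 and 5.80 FPKM in basal and 2.31 and 2.01 FPKM in central spikelets. Replicate 2 of basal day 21 was the lowest of its group and still above both central libraries. By day 27 the order had turned, with 0.49, 0.51 and 0.47 FPKM in basal and 0.71, 0.93 and 2.37 FPKM in central spikelets.

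**Figure D1:**
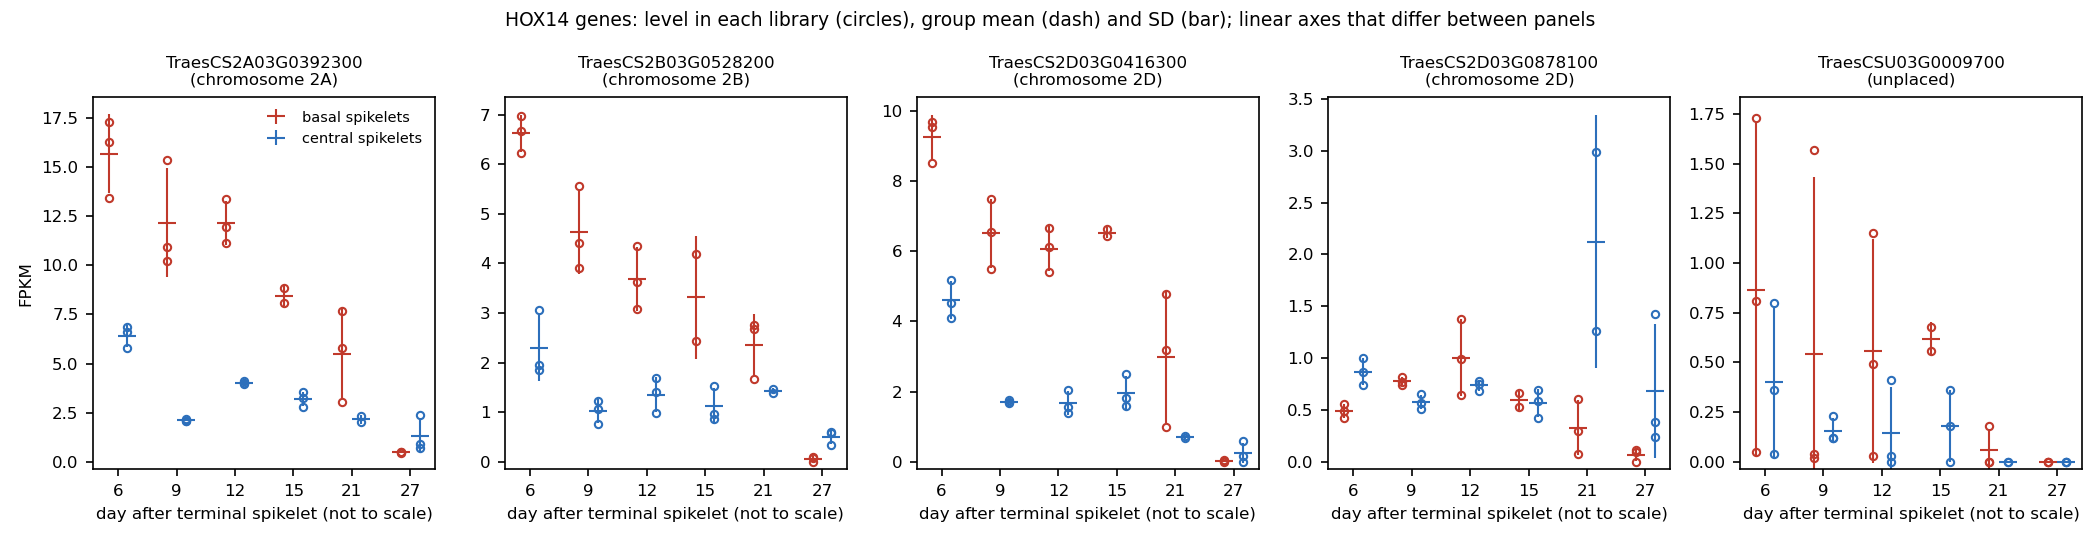
FPKM of each HOX14 gene (vertical axes, linear, a scale of its own per panel) by day after the terminal spikelet stage. Circles are libraries, dashes group means and bars SDs, with basal spikelets in red left of central spikelets in blue. The 2A copy stands at 13.4 to 17.3 FPKM in basal and 5.79 to 6.84 FPKM in central libraries on day 6, and the unplaced gene scatters between 0.05 and 1.73 FPKM within 1 group.

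In edgeR's quasi-likelihood test over all models, the log2 difference of the 2A copy (basal minus central) was largest on day 9, at 2.51 ± 0.27 (SE), a 5.71-fold higher level in basal spikelets (adjusted p = 2.9e-08). It was 1.36 ± 0.24 on day 6 (adjusted p = 0.000234), 1.57 ± 0.26 on day 12 (4.72e-05), 1.29 ± 0.28 on day 15 (0.00122) and 1.48 ± 0.32 on day 21 (0.00159). On day 27 it was -1.36 ± 0.40 (adjusted p = 0.0155). That last call rested on replicate 3 of central day 27: without it the log2 difference was -0.61 (adjusted p = 0.267). This library also had the highest green-tissue sum of its group, 11526 FPKM against 4981 and 8515 FPKM, and the lowest pollen and anther sum, 555 FPKM against 713 and 630 FPKM. Their part in the result was not tested.

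The 2B copy followed at a lower level. Its day 6 libraries had 6.97, 6.68 and 6.23 FPKM in basal and 1.86, 1.96 and 3.06 FPKM in central spikelets. On day 9 they had 5.56, 3.91 and 4.42 FPKM in basal and 1.07, 1.23 and 0.77 FPKM in central spikelets, and on day 12 they had 3.62, 4.36 and 3.08 FPKM in basal and 0.99, 1.40 and 1.68 FPKM in central spikelets. The groups did not overlap on these days, and the log2 difference was 1.60 ± 0.25, 2.16 ± 0.28 and 1.42 ± 0.27 (adjusted p = 3.45e-05, 4.51e-07 and 0.000322). On day 15 the basal libraries had 2.44 and 4.19 FPKM and the central ones 0.87, 0.97 and 1.53 FPKM (log2 difference 1.44 ± 0.30, adjusted p = 0.000704). Without basal day 15 replicate 2 this was 1.01 (adjusted p = 0.0674). On day 21 the values were 2.76, 1.66 and 2.67 FPKM in basal and 1.47 and 1.39 FPKM in central spikelets, and the difference of 0.85 ± 0.31 did not pass the test (adjusted p = 0.0587), except without basal day 21 replicate 2 (1.07, adjusted p = 0.0234), basal day 27 replicate 2 (0.0464) or central day 27 replicate 1 (0.0474). On day 27 the copy fell to 0.10, 0 and 0.07 FPKM in basal spikelets (15, 0 and 10 counts), against 0.33, 0.61 and 0.59 FPKM in central spikelets (49, 85 and 82 counts). This was a log2 difference of -2.99 ± 0.63 (adjusted p = 0.000994), a size that rests on very few counts in basal spikelets.

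The 2D copy had 9.55, 8.52 and 9.69 FPKM in basal and 4.10, 5.18 and 4.54 FPKM in central spikelets on day 6. The log2 difference of 1.08 ± 0.31 passed the test (adjusted p = 0.0144), but not in DESeq2 (adjusted p = 0.253), with limma on log2(FPKM + 0.1) (0.125), or without replicate 1 of basal day 6 (0.051) or of central day 6 (0.0647). It had 7.48, 5.51 and 6.55 FPKM in basal and 1.67, 1.76 and 1.71 FPKM in central spikelets on day 9. On day 12 it had 6.13, 6.68 and 5.40 FPKM in basal and 1.40, 1.57 and 2.06 FPKM in central spikelets. The differences were 1.93 ± 0.34 (adjusted p = 4.75e-05) and 1.84 ± 0.35 (adjusted p = 0.000241). Unlike the 2A copy, whose basal libraries of day 15 were below all those of day 12, this copy held 6.64 and 6.43 FPKM in basal spikelets on day 15, against 1.58, 1.81 and 2.50 FPKM in central spikelets. The day 15 difference was 1.62 ± 0.36 (adjusted p = 0.00135, and 0.0969 in DESeq2). On day 21 the basal libraries spread from 1.0 to 4.78 FPKM (4.78, 1.0 and 3.20) above central libraries at 0.67 and 0.73 FPKM, a difference of 2.20 ± 0.46 (adjusted p = 0.00121). On day 27 it stood at 0.06, 0 and 0.03 FPKM in basal and 0, 0.17 and 0.58 FPKM in central spikelets. The day 27 groups overlapped and the difference did not pass the edgeR test (adjusted p = 0.0805). It passed in DESeq2 (0.00249), without basal day 21 replicate 2 (0.025) and without central day 27 replicate 1 (0.0202).

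**Figure D2:**
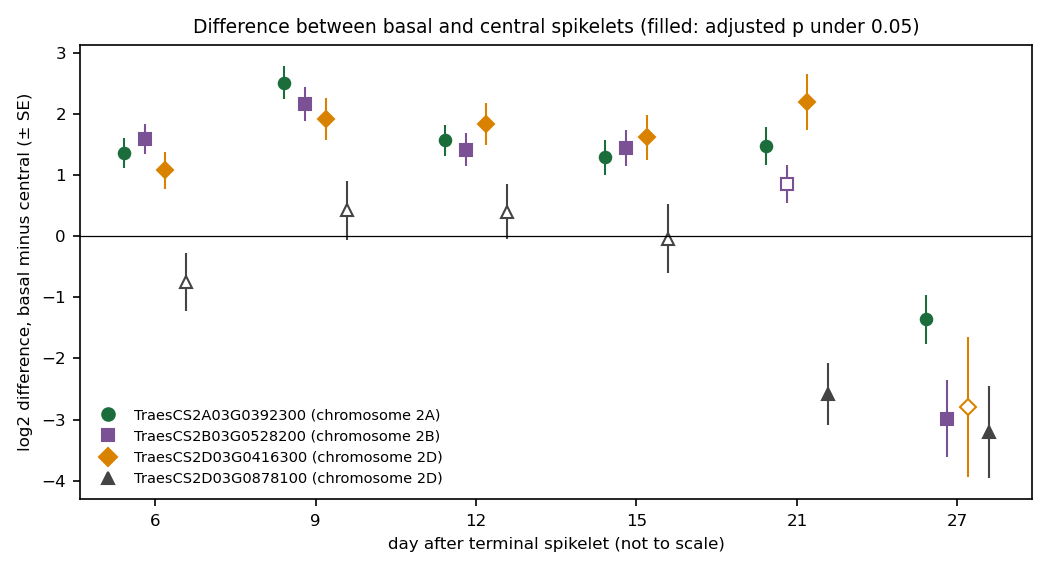
Log2 difference between basal and central spikelets (basal minus central, vertical axis) on each day, with SE bars, for 4 HOX14 genes; filled symbols passed the edgeR test. The 3 copies lie between 0.85 and 2.51 through day 21 and between -2.99 and -1.36 on day 27, while TraesCS2D03G0878100 lies between -0.74 and 0.43 through day 15, where it did not pass, and at -2.58 and -3.21 on days 21 and 27.

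The 2A, 2B and 2D copies are counterparts of 1 gene and may share reads, so they are not independent of one another. Counted over all 5 genes, these 3 were higher and 0 were lower in basal spikelets on each of days 6, 9, 12 and 15. Against this, 7.91%, 18.1%, 13.6% and 8.89% of all tested models were higher on those days, and 9.2%, 18.2%, 14.5% and 13.8% were lower (17.1%, 36.3%, 28.1% and 22.7% in either direction). On day 21 there were 2 higher (background 10.2%) and 1 lower (6.88%, and 17.1% either way), and on day 27 there were 0 higher (11.3%) and 3 lower (10.4%, and 21.7% either way). The FPKM ranges of the positions did not overlap for 4, 4, 3, 4, 4 and 3 of the 5 genes on the 6 days in turn, where the background was 36.1%, 50.4%, 41.7%, 53.5%, 51.9% and 28.9%. The size of the difference depended on the day for 4 of 5 genes, as for 56.7% of all models. That test of change over days gave adjusted p = 1.33e-05 for the 2A copy, 1.49e-05 for the 2B copy and 0.00954 for the 2D copy. The last of these rested on central day 27 replicate 3 (adjusted p = 0.116 without it).

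In the mean of the 6 daily differences, which day 27 pulls down for the 3 copies, 3 genes were higher and 1 lower, where 16% of all models were higher and 17.5% lower (33.5% either). The level of the 2A copy was higher in basal spikelets by 2.21-fold (1.14 ± 0.13 on the log2 scale, adjusted p = 7.52e-08), the 2B copy 1.68-fold (0.75 ± 0.20, 0.00432) and the 2D copy 1.97-fold (0.98 ± 0.37, 0.0439). Without day 27, a choice made after seeing the data, these log2 differences were 1.64, 1.496 and 1.73. Without day 9 the 2A copy kept its call, while the 2B copy (adjusted p = 0.112) and the 2D copy (adjusted p = 0.16) lost theirs. The call of the 2B copy also ended without basal day 27 replicate 1 (adjusted p = 0.0986). Leaving out 1 library at a time ended that of the 2D copy in 20 of 34 cases, with a log2 difference of 0.79 to 1.23 over the 34 fits.

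The mean of the 2A copy was lower on day 27 than on day 6 in both positions. In basal spikelets the 2A copy averaged 15.7 ± 2.0 FPKM on day 6, 12.2 ± 2.8 on day 9, 12.2 ± 1.1 on day 12, 8.46 ± 0.54 on day 15, 5.51 ± 2.3 on day 21 and 0.49 ± 0.02 on day 27 (SD, n = 3, and n = 2 on day 15). In central spikelets it averaged 6.41 ± 0.55, 2.13 ± 0.05, 4.02 ± 0.09, 3.19 ± 0.37, 2.16 ± 0.21 and 1.34 ± 0.90 FPKM on the same days (SD, n = 3, and n = 2 on day 21). For this copy all 3 central libraries of day 12 were above those of day 9, while the 2D copy averaged 1.71 FPKM on day 9 and 1.68 FPKM on day 12 in central spikelets. Change over days passed the test for all 5 genes in basal spikelets (92.1% of all models) and for 4 in central spikelets (88.1%). For the unplaced gene the basal call was marginal (adjusted p = 0.0491). It was lost in 20 of the 34 fits made without 1 library.

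Basal spikelets of one sampling were also set against central spikelets of the sampling before, since the positions may be at different stages. The 2A copy was 1.81-fold higher in basal day 9 than in central day 6 spikelets (adjusted p = 0.0112). That call ended without basal day 9 replicate 1 (0.0838) or central day 6 replicate 2 (0.0503). It was 5.60-fold higher in basal day 12 than in central day 9 spikelets (adjusted p = 8.69e-08), and 2.17-fold higher in basal day 15 than in central day 12 spikelets (0.00483, and 0.0521 without basal day 15 replicate 1). The 2B copy was 1.93-, 3.51- and 2.53-fold higher in the same 3 comparisons (adjusted p = 0.00668, 1.61e-05 and 0.00163, the last 0.109 without basal day 15 replicate 2). The 2D copy differed by 0.44 ± 0.31 on the log2 scale in the first (adjusted p = 0.332) and was 3.47- and 4.04-fold higher in the others (0.000212 and 0.000193). Thus 2, 3 and 3 of the 5 genes were higher, where 13.2%, 15.0% and 12.4% of all models were, and 0 were lower (10.8%, 10.7% and 8.28%, and 24%, 25.8% and 20.7% either way). Ordered by mean level, the 4 highest groups of the 2A copy were basal days 6, 9, 12 and 15, and the lowest of these libraries (8.08 FPKM) was above the highest central library of any day (6.84 FPKM). Among these 4 groups, neighbours in that order overlapped between basal days 6 and 9 and between basal days 9 and 12.

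The 3 copies were also summed, and each was expressed as a share of the sum. Their summed level in basal spikelets was 31.6 ± 2.7 FPKM on day 6, 23.3 ± 4.4 on day 9, 21.9 ± 2.4 on day 12, 18.3 ± 0.55 on day 15, 10.9 ± 4.8 on day 21 and 0.577 ± 0.070 on day 27. In central spikelets it was 13.3 ± 0.77, 4.86 ± 0.30, 7.05 ± 0.77, 6.28 ± 1.2, 4.29 ± 0.23 and 2.10 ± 1.3 FPKM on those days (SD, n as above). The central sum was thus lower on day 9 than on day 12, and both positions had their lowest mean sum on day 27. The 2A copy gave 46.3 to 55.5% of the sum in basal and 43.8 to 57.4% in central spikelets as group means through day 21. The 2D copy exceeded the 2B copy in the mean of every group through day 21 except central day 21, where the 2B copy had 33.3 ± 0.44% and the 2D copy 16.4 ± 1.9% (SD, n = 2). In basal spikelets of that day they had 23.4 ± 5.5% and 25.5 ± 7.2% (SD, n = 3). On day 27 the 2A copy gave 85.9 ± 12.7% in basal and 63.2 ± 7.7% in central spikelets, and the 2D copy 4.83 ± 4.6% in basal and 8.78 ± 8.3% in central spikelets (SD, n = 3 each).

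**Figure D3:**
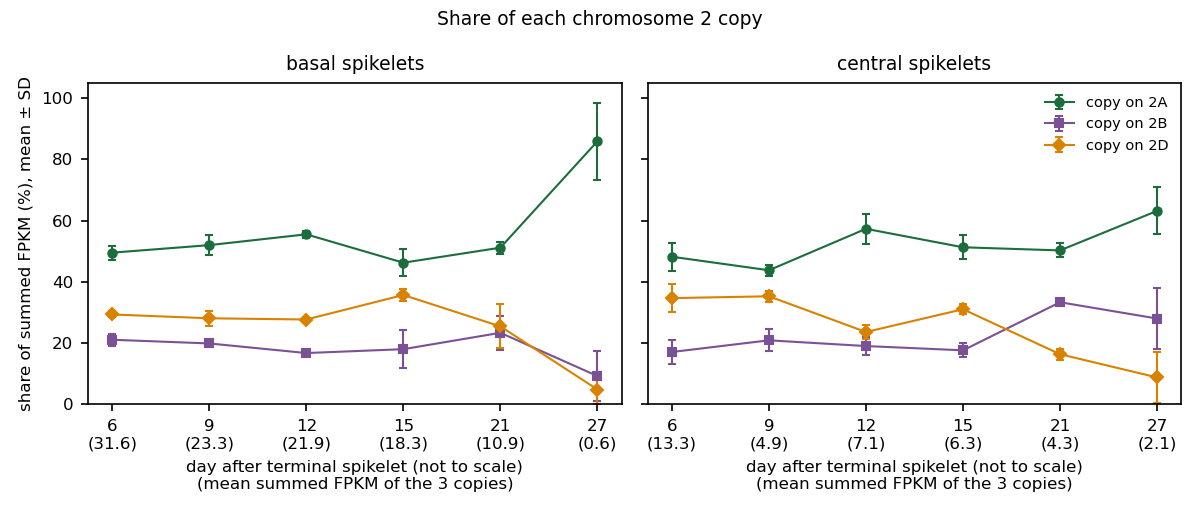
Share of the 2A, 2B and 2D copies in their summed FPKM (vertical axis, percent, group mean and SD) by day, basal spikelets on the left and central spikelets on the right; the mean sum in FPKM stands under each day. The 2A copy gives 43.8 to 57.4% through day 21 in both positions, and the day 27 shares of basal spikelets rest on a sum of 0.577 FPKM.

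Whether the positions differed in this balance was tested with the log2 ratio of FPKM + 0.1 between copies, by permuting position within day (permutation test, 100000 resamples, two-sided, 3 pairs). The ratio of 2A over 2B was 1.46 in basal and 1.19 in central spikelets, a difference of 0.27 (permutation p = 0.0541, adjusted p = 0.138). For 2A over 2D the ratios were 1.03 and 1.08 in basal and central spikelets (difference -0.04, adjusted p = 0.723). For 2B over 2D they were -0.43 and -0.11 (difference -0.31, adjusted p = 0.138). No pair passed at this setting, and the daily differences ran from -1.05 on day 21 to 0.53 on day 6 for 2B over 2D. For 2A over 2B the largest daily difference was 0.87, on day 27. In basal libraries of that day the 2B copy had 0 to 0.10 FPKM and the 2D copy 0 to 0.06 FPKM. The added 0.1 therefore weighs heavily on the day 27 ratios. On log2(FPKM + 1) the difference for 2A over 2B passed the test (0.26, adjusted p = 0.0335), as it did without basal day 15 replicate 2 (0.35, adjusted p = 0.0343).

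TraesCS2D03G0878100 behaved otherwise. Its basal libraries had 0.49, 0.42 and 0.56 FPKM on day 6 and the central ones 0.87, 1.0 and 0.74 FPKM (adjusted p = 0.315). From day 9 through day 15 it stood between 0.53 and 1.38 FPKM in basal and between 0.42 and 0.78 FPKM in central libraries, with log2 differences of -0.04 to 0.43 and SEs of 0.45 to 0.56 that did not pass the test. On day 21 it was at 0.61, 0.08 and 0.30 FPKM in basal and at 2.99 and 1.26 FPKM in central spikelets. The central libraries of that day were both above all basal ones, and the log2 difference was -2.58 ± 0.51 (adjusted p = 0.000695). Without central day 21 replicate 1 it was -1.82 (adjusted p = 0.0559). The pollen and anther sum of day 21 was 224 to 382 FPKM in basal libraries and 445 and 340 FPKM in central replicates 1 and 2, and its part in the result was not tested. On day 27 it had 0.09, 0.11 and 0 FPKM in basal and 0.38, 1.43 and 0.24 FPKM in central spikelets (log2 difference -3.21 ± 0.76, adjusted p = 0.00293), and without central day 27 replicate 2 it was -2.07 (0.0627). In the mean of 6 days it was 1.94-fold lower in basal spikelets (log2 difference -0.96 ± 0.23, adjusted p = 0.002). With day 27 left out this no longer passed (-0.51, adjusted p = 0.0837). The difference depended on the day (adjusted p = 0.000816). The change over days in central spikelets (adjusted p = 0.00206) rested on central day 21 replicate 1 (adjusted p = 0.352 without it).

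The unplaced gene was scattered within groups. On day 6 it had 0.05, 0.81 and 1.73 FPKM in basal libraries (9, 152 and 336 counts) and 0.36, 0.80 and 0.04 FPKM in central libraries (69, 135 and 8 counts). On day 9 it had 1.57, 0.04 and 0.02 FPKM in basal and 0.12, 0.23 and 0.12 FPKM in central libraries. On day 12 it had 0.49, 1.15 and 0.03 FPKM in basal and 0, 0.03 and 0.41 FPKM in central libraries. The positions overlapped on each of these days, and in every one of them at least 1 basal library was under 0.06 FPKM. Day 15 gave 0.68 and 0.56 FPKM in basal and 0, 0.18 and 0.36 FPKM in central libraries. On day 21 only basal replicate 1 had any counts (28, or 0.18 FPKM), and on day 27 all 6 libraries were at 0. No day passed the test (adjusted p = 0.314 to 1), and no fold is given for days 21 and 27 or for the mean of 6 days, since groups stood at 0. A fold was left out where both positions averaged under a floor of 12 counts a library, which covers counting error only. The floor assumes 3 fragments of 4 counts each, although what 1 count stands for is not known. On day 27 the 2B and 2D copies and TraesCS2D03G0878100 averaged under this floor in basal spikelets alone. The sizes of their fitted day 27 differences are therefore not exact, and on log2(FPKM + 1) the differences were -0.51, -0.25 and -0.59.

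Across the 34 libraries the log2(FPKM + 0.1) values of the 3 copies had Pearson r of 0.94 to 0.96 with one another. TraesCS2D03G0878100 had r of 0.43 to 0.52 with them and the unplaced gene 0.56 to 0.63. These values are descriptions, since the libraries share days and positions. Outside the 5 genes, the described models most like the 2A copy were TraesCS4D03G0476400, described as hyphally-regulated protein-like (r = 0.933), TraesCS2A03G0714400, an auxin receptor-like gene of the transport inhibitor response 1 type (0.928), and TraesCS7D03G0057900 of the UPF0481 family (0.922). For the 2B copy they were TraesCS1D03G0002800, a putative NBS-LRR resistance gene (0.937), the same auxin receptor-like gene (0.922) and TraesCS2D03G0352200, for a heavy metal-associated isoprenylated protein (0.901). For the 2D copy they were TraesCS4D03G0171200, a nitrate and peptide transporter family gene (0.927), TraesCS4D03G0476400 (0.925) and TraesCS1B03G0512300, a LOG-like gene for the last step of cytokinin activation (0.918). TraesCS2D03G0878100 was most like TraesCS1D03G0910600, an L-type lectin receptor kinase gene (0.76), TraesCS5A03G1084900LC (0.747) and TraesCS4B03G0286000, a PBL8 kinase gene (0.747). The unplaced gene was most like TraesCS7A03G0422300, a trehalose-phosphate phosphatase gene (0.69), TraesCS6D03G0504700, a splicing factor gene (0.679), and TraesCS3D03G0288900, a shaggy-related kinase gene (0.675).

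HOX12, another class I name, had 3 tested genes, on 4A, 4B and 4D. All 3 were higher in basal spikelets in the mean of 6 days, as were 16% of all models. Their log2 differences were 2.79, 2.46 and 3.02. Their median was 2.79, beyond the 0.75 to 1.14 of the 3 HOX14 copies, although a difference between the families was not tested. Their levels were low by day 27: TraesCS4D03G0623900 averaged 48.8 FPKM on day 6 and 0.747 FPKM on day 27 in basal spikelets, against 4.38 and 1.09 FPKM in central spikelets. On day 27 1 HOX12 gene was higher (TraesCS4A03G0078800, log2 difference 0.69, adjusted p = 0.018), 1 was lower (TraesCS4B03G0697100, -1.44, adjusted p = 0.000487) and 1 was not called. Of all models, 11.3% were higher and 10.4% lower on that day. The r of HOX12 genes with the 2A copy over the 34 libraries was 0.85 to 0.91. With the 2B copy it was 0.79 to 0.84 and with the 2D copy 0.77 to 0.84. With the unplaced gene it was 0.47 to 0.55, and with TraesCS2D03G0878100 only 0.133 to 0.255.

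Of the 17 other class I genes tested, 4 were higher and 7 lower in the mean of 6 days, with a median log2 difference of -0.23. In that mean, 16% of all models were higher and 17.5% lower, which is the background for every list of this paragraph. The HOX24-like gene TraesCS6D03G0545300 was 3.12-fold higher (adjusted p = 6.45e-08), a size that rests partly on very low levels. Central means were 0.24, 0.09 and 0.12 FPKM on days 6, 9 and 12, and basal means 0.99, 1.77 and 1.09 FPKM. This gene was lower in basal spikelets on day 15 (log2 difference -1.42, adjusted p = 0.00315) and higher on day 21 (1.38, 0.00183). On day 27, where its level peaked, the difference did not pass the test (0.51, adjusted p = 0.149). The HOX16-like gene TraesCS6A03G0767600 (log2 difference -0.47, adjusted p = 4.49e-09) and the HOX4-like gene TraesCS5A03G0622600 (-0.23, 1.85e-06) were lower in the mean of 6 days. Class II, which in other plants includes shade-response genes, had 6 of 21 higher and 3 lower (median 0.22). Its leading genes were HOX11-like TraesCS5A03G0591200 (log2 difference 0.78, adjusted p = 1.39e-07) and HOX19-like TraesCS4A03G0118400 (0.50, 2.7e-07) and TraesCS4D03G0571200 (0.55, 1.51e-06). Among 32 other homeobox-leucine zipper genes, 3 were higher and 1 lower (median 0.04). Those with the smallest adjusted p were ROC6-like TraesCS4B03G0190600 (0.22, 1.98e-05), ROC7-like TraesCS7D03G0729900 (0.30, 0.0083) and HOX32 TraesCS5B03G0946900 (0.22, 0.0144).

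**Figure D4:**
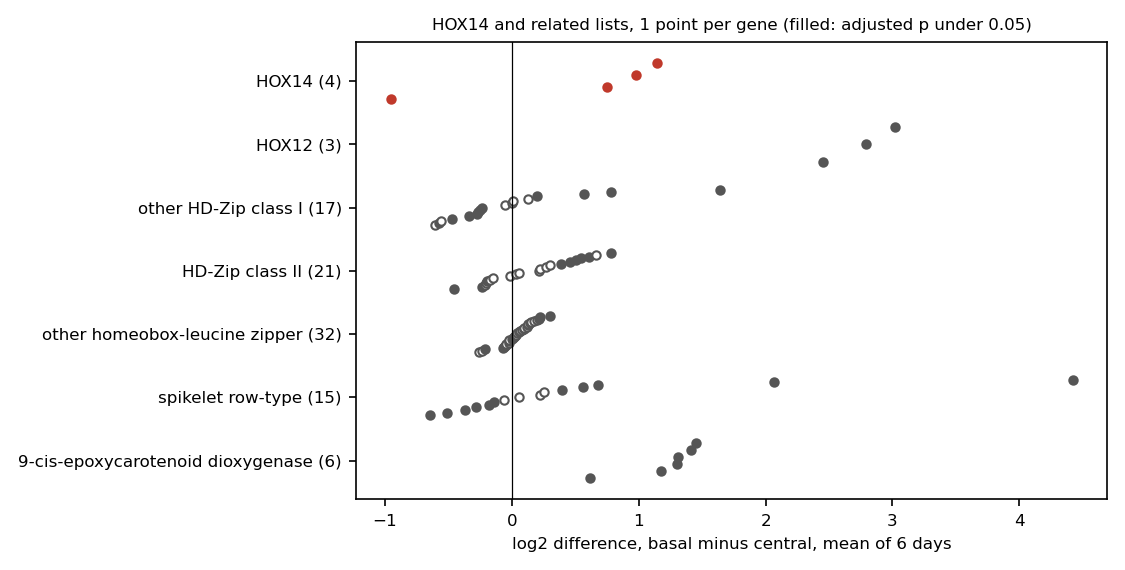
Log2 difference between basal and central spikelets (mean of 6 days, horizontal axis) of 4 HOX14 genes in red and of 6 lists in grey. Each point is 1 gene model, filled where the edgeR test was passed. Numbers of models stand in brackets and the unplaced HOX14 gene is left out. HOX14 has 3 points between 0.75 and 1.14 and 1 at -0.96, and the 3 HOX12 points lie between 2.46 and 3.02.

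A further list held 15 tested genes picked by description alone (TEOSINTE BRANCHED 1, JMJ706 and SHI-related names). Barley genes that set spikelet rows bear such names, and which of the 15 correspond to them was not checked. In the mean of 6 days 5 were higher and 6 lower (median 0.05), against 16% and 17.5% of all models. TEOSINTE BRANCHED 1-like TraesCS5D03G0003700, described after a repressor of outgrowth, had a mean of 2.68 FPKM over basal and of 0.542 FPKM over central libraries (log2 difference 2.06, adjusted p = 1.21e-10). TraesCS5A03G0003300, with the same description, averaged 0.728 and 0.0447 FPKM in basal and central libraries (7.44e-11). SHI RELATED SEQUENCE 1-like TraesCS7B03G0457500 was higher by 0.56 (8.16e-06). These were named for the smallest adjusted p of the list. Among the 6 lower genes was TraesCS7B03G0822000, also SHI RELATED SEQUENCE 1-like (log2 difference -0.64, adjusted p = 4.19e-05). All 6 tested models for 9-cis-epoxycarotenoid dioxygenase, the rate-limiting enzyme of abscisic acid synthesis, were higher in that mean (16% of all models), with a median of 1.31. TraesCS5B03G0943700 had a log2 difference of 1.17 (adjusted p = 1.39e-11), TraesCS5D03G0099600 of 1.31 (9.52e-11) and TraesCS5B03G0068800 of 1.30 (3.04e-10). Of the 6, TraesCS5A03G0075100LC (29449637 to 29451091 on 5A) and TraesCS5A03G0075200LC (29451106 to 29451480) lie close together and may be parts of 1 gene. On day 15, 1 of the 6 was higher (8.89% of all models). On day 27, 0 were higher (11.3%) and 1 was lower (10.4%). These lists share the libraries and days of the HOX14 genes and were chosen with earlier results known.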

How the data were processed

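The authors deposited 1 table of gene models with counts and FPKM per library (unit and layout per the file headers). The deposited counts are whole numbers without normalization, and the authors scaled the FPKM for transcript length and library total. Small counts pile up at multiples of 4 (33.9 to 35.6% of counts up to 40, against 25% if even). The submitters' processing notes name Bowtie 0.12.2 and mouse builds; the aligner, counter, strand setting and wheat build used are not given in the sources used here. Coordinates were checked: of 55095 tested high-confidence models, 94.4% overlapped a coding gene of IWGSC CS RefSeq v2.1 (6.5% after a shift of 5 Mb).

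The 71963 models that reached 1 FPKM in 2 or more libraries were fitted together in edgeR 4.0.16 (R 4.3.3; TMM, 12 group means, glmQLFit with legacy = FALSE, glmQLFTest), with Benjamini-Hochberg adjustment over all tested models of a comparison and 0.05 as the threshold. SEs are the absolute log2 difference over the square root of F. The script was tested on simulated data. Alternatives were DESeq2 1.42.0, limma 3.58.1 on log2(FPKM + 0.1) and log2(FPKM + 1), other scaling and filters, counts divided by 4, a replicate block and leaving out each library. Named were all 5 genes, for each the 3 described models with the highest Pearson r of log2(FPKM + 0.1), and of each list the 3 with the smallest adjusted p. Members and lists were chosen with earlier results of these data known. A planned promoter motif search was not run, and sequences were not used here.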

Additional observations from a re-analysis of the deposited data

Results flagged for a closer look

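In 4 of the 5 HOX14 genes the difference between basal and central spikelets changed over the 6 days, by the F test of that change over 5 contrasts in edgeR (adjusted over all models), as did 56.7% of all models tested. For the 2A copy TraesCS2A03G0392300 (adjusted p = 1.33e-05), daily log2 differences ran from 2.51 on day 9 to -1.36 on day 27. For the 2B copy TraesCS2B03G0528200 (adjusted p = 1.49e-05) they ran from 2.16 on day 9 to -2.99 on day 27. For the 2D copy TraesCS2D03G0416300 (adjusted p = 0.00954) they ran from 2.20 on day 21 to -2.79 on day 27, where basal libraries had 9, 0 and 4 counts and central libraries 0, 23 and 76 counts. This adjusted p was 0.116 without central day 27 replicate 3. The day 27 difference itself did not pass the test and lay between -3.83 and -1.23 without 1 library and at -0.25 on log2(FPKM + 1). For TraesCS2D03G0878100 (adjusted p = 0.000816) they ran from 0.43 on day 9 to -3.21 on day 27.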

How the results depend on the processing

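The labels do not say whether the replicate numbers pair the samples. Same-numbered libraries of a day deviated from their group means with r of -0.245 to 0.267, and 2 of 16 pairs were over 0.1. Of 32 libraries, 16 matched best with their own number. Each had only 2 or 3 candidates, so this check cannot decide whether samples were paired. With the replicate block, 23766 in place of 24122 models were called in the mean of 6 days, and of the HOX14 calls the change over days of the unplaced gene in basal spikelets ended (adjusted p = 0.0692). That call also ended with RLE scaling (0.0527), with counts divided by 4 (0.0518) and on log2(FPKM + 1) (0.0712); in central spikelets DESeq2 called it (0.0144). The 2D copy lost its call in the mean of 6 days with no filter (0.0743) and with counts divided by 4 (0.0671). TraesCS2D03G0878100 and the unplaced gene were not in the fit with FPKM of at least 1 in 6 libraries. The directions of the called differences of the 2A and 2B copies and of TraesCS2D03G0878100 held in all alternatives run. Reversed were differences that had not passed the test: TraesCS2D03G0878100 on day 15 on log2(FPKM + 0.1) (0.075), on log2(FPKM + 1) (0.0284) and among fits without 1 library (-0.22 to 0.14), and the unplaced gene on basal day 9 against central day 6 (-0.35 on log2(FPKM + 0.1), -3.46 to 1.25 without 1 library) and on day 9 (-2.09 to 2.30). The balance of 2A over 2D reversed on log2(FPKM + 1) (0.0382) and ran from -0.0846 to 0.0201 without 1 library; that of 2A over 2B passed on log2(FPKM + 1) (0.26) and ran from 0.20 to 0.35. Counts of called models stayed within 1.5 times except without 1 library: 9604 (without basal replicate 1) to 17696 on day 15 (16345 with all), 5987 (without central replicate 2) to 14361 on day 21 (12300) and 8496 (without basal replicate 1) to 16402 for basal day 15 against central day 12 (14897). These fits left a group with 1 library, assumed to vary like the other groups. On log2(FPKM + 0.1) the share of higher among called models was 27.7% on day 6 (46.2% in edgeR), 56.7% on day 15 (39.1%), 31.1% on day 21 (59.7%) and 36.4% on day 27 (52.1%), 72.2% for basal day 9 against central day 6 (55.1%), and the median of all models on day 21 was -0.13. Causes were not tested. Depth limits the day 27 values of the 2B and 2D copies, of which basal libraries held 0 to 15 counts.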

Other observations

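Day 27 differences in other class I homeobox-leucine zipper genes were looked at after their values had been seen. Of 17 tested genes, 9 were lower and 1 higher in basal spikelets on that day, where 10.4% of all models were lower and 11.3% higher. The 9 included HOX13-like genes on 4A, 4B and 4D and HOX21-like genes on 4A, 4B and 4D. Genes of the same name may be copies of 1 gene, which was not checked, so the 9 may not be independent. The 3 HOX13-like genes had close log2 differences on day 27, -1.07 for TraesCS4D03G0715500, -1.03 for TraesCS4B03G0798000 and -1.14 for TraesCS4A03G1007700 (adjusted p = 9.46e-07, 1.6e-05 and 6.25e-08). In the mean of 6 days they had 0.20, 0.13 and -0.05, of which only the first passed the test (adjusted p = 0.00573, 0.129 and 0.469). The HOX22-like gene TraesCS2D03G0882100 was the 1 higher on day 27 (0.88, adjusted p = 0.0053).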
